A study of Mus musculus with 18 samples.

Results

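These arrays followed mouse embryonic stem cells (ESCs) from day 2 to day 5 of treatment with LY294002, an inhibitor of phosphoinositide 3-kinase (PI3K). The members are 6 of the 18 arrays of the series, chosen by their labels alone. They are the day 2 and day 5 arrays of 3 lines grown in serum with LIF, which gives 3 arrays at each day and 1 array per line and day. All 3 lines derive from EBRTcH3 ESCs, which the labels describe as male and of 129SV background. They are the parental line, a line that overexpresses wild-type c-Myc and a line that overexpresses c-Myc T58A. T58A removes a phosphorylation site that marks c-Myc for degradation. For the parental line the array labelled ver2 stands at day 5, because its description names the same untreated reference as the day 2 array. The untreated arrays of the 3 lines (1 each, ver2 for the parental line) give context and entered no test of day 5 against day 2. All 6 arrays carry LY294002, so the comparison measures time under the inhibitor and not the inhibitor itself. Culture time and passage differ with the day in the same way and cannot be told apart from it. Its dose, the promoter of the c-Myc transgenes and whether a line is 1 clone are not given in the sources used here. The description of the untreated c-Myc T58A array speaks of N-Myc, so the lines are named here by the labels of their day 2 and day 5 arrays.

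PI3K makes a membrane lipid that recruits and activates the kinase Akt. Akt keeps FOXO transcription factors out of the nucleus and, through mTORC1, raises protein synthesis and the translation of ATF4, a regulator of amino acid genes. In mouse ESCs the pathway acts beside LIF and is known for its part in self-renewal and proliferation.

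Values are log2 levels of a gene, as deposited, and differences between them are log2 changes. Where 3 values follow each other they belong to the parental, c-Myc wild and c-Myc T58A lines, in that order. A change carries the standard error (SE) of a limma fit with the line as a block, and a gene is called where its Benjamini-Hochberg adjusted p over 13248 genes is under 0.05. The replicates are lines and not repeated cultures of one line, so the p-values measure how alike the 3 lines changed.

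From day 2 to day 5, 363 genes were called, which is 2.74% of the 13248 tested. Of these, 223 rose (1.68%) and 140 fell (1.06%), and all 363 had the same direction in all 3 lines. At least 2-fold changes were seen for 60 of the genes that rose and 31 of those that fell. The levels at the 2 days did not overlap for 256 of the 363, against 2931 of the 13248 genes tested. The number of calls rested on the choice of arrays. Without the c-Myc T58A line 2 genes were called (S100a6 and Anxa3, so every other call below is lost there), without the c-Myc wild line 110 and without the parental line 678. Without the block it was 25. With the parental day 5 array of replicate 1 in place of ver2 no gene was called (1254 had an unadjusted p under 0.05, smallest adjusted p 0.454). Direction was kept by 350 of the 363. That fit still holds both c-Myc lines, in which all 363 moved the same way, so the kept directions are no independent support. Centring each array on its median gave 199 rises and 247 falls, so the split between rises and falls depends on the scaling.

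The cells kept the defining transcripts of ESCs. All 6 ESC markers (Pou5f1, Sox2, Nanog, Zfp42, Dppa5a and Sall4) lay between 11.62 and 14.29 on every one of the 6 arrays. Pou5f1, a core pluripotency factor, read 12.93, 13.07 and 13.05 at day 2 and 12.89, 12.95 and 13.00 at day 5. Sox2, its partner, read 12.94, 12.94 and 12.93 and then 12.81, 12.93 and 12.85. Nanog, the third core factor, read 11.62, 11.64 and 11.64 at day 2 and 11.77, 11.87 and 11.95 at day 5, a change of 0.23 (SE 0.08, adjusted p 0.156). None of these 3 genes passed the test, and Nanog was above its day 2 level in every line. Among markers of other cells, Elf5, Gata3 and Tpbpa (trophoblast), Sox7, Pdgfra and Cubn (primitive endoderm) and Col1a1, Col3a1, Postn and Lum (fibroblasts) lay under the level filter of 4.64 on all 6 arrays. The mean over 14 trophoblast markers was 5.48, 5.20 and 5.19 at day 2 and 5.80, 5.75 and 5.63 at day 5. Over 13 fibroblast markers it was 5.31, 5.20 and 5.08 and then 5.52, 5.20 and 5.15. In RNA of whole cultures, more cells of one type and more RNA per cell cannot be told apart.

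By fitted change the 12 largest rises among called genes were Gbp2, S100a6, Gbp2b, Anxa3, Slc40a1, Ltb, Krt8, Fndc3c1, Anxa1, Krt18, Samd4 and Car4. S100a6, a small calcium-binding protein that partners annexins, read 6.85, 5.18 and 4.44 at day 2 and 9.71, 7.98 and 7.68 at day 5. A level under the filter of 4.64 is not clearly above background, so the size of a change that rests on one is uncertain. With such levels raised to the filter, an alternative chosen after seeing the data, the rise of S100a6 was 2.90 in place of 2.96. The days did not overlap, and the rise of 2.96 (SE 0.11, 7.81-fold, adjusted p 0.00525) was 2.85, 2.80 and 3.24 in the 3 lines. Anxa3, an annexin that binds membranes in the presence of calcium, read 7.01, 5.16 and 5.02 and then 9.90, 8.08 and 7.24, a rise of 2.68 (SE 0.15, 6.39-fold, adjusted p 0.00871). Anxa1 went from 7.44, 6.23 and 5.68 to 10.41, 7.91 and 7.28, and here the parental day 2 array lay above the day 5 array of the T58A line. Its rise was 2.08 (SE 0.28, adjusted p 0.0325).

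Krt8 and Krt18 encode the keratin pair of simple epithelia and of trophoblast. Krt8 read 7.47, 5.98 and 6.39 at day 2 and 10.34, 8.40 and 7.75 at day 5, a rise of 2.21 (SE 0.28, 4.64-fold, adjusted p 0.0305). Krt18 read 8.17, 6.62 and 6.40 and then 10.48, 8.59 and 7.99, a rise of 1.96 (SE 0.14, 3.88-fold, adjusted p 0.0133). Both rose in each line, with the parental array the highest at both days. They were the only 2 of 9 trophoblast markers tested that passed (1.68% of all genes rose), and the median of those 9 was 0.050 against 0.009 over all genes. Slc40a1, the iron exporter ferroportin, read 7.73, 5.94 and 5.32 at day 2 and 9.19, 8.90 and 8.67 at day 5. It rose by 2.59 (SE 0.36, 6.02-fold, adjusted p 0.0331), and its day 5 levels lay closer together than its day 2 levels. Ltb, which encodes the cytokine lymphotoxin beta, went from 6.76, 5.96 and 5.42 to 10.24, 7.91 and 7.18, with the largest rise in the parental line (3.48). Car4, a membrane carbonic anhydrase, went from 7.18, 5.08 and 4.75 to 8.59, 7.31 and 6.86, and Car2, a cytosolic one, rose by 1.40 (SE 0.08, adjusted p 0.00871). Fndc3c1 rose by 2.09 (SE 0.18) and Samd4, which encodes an RNA-binding protein, by 1.94 (SE 0.24). For Samd4 the size depends on the probe set, from 0.78 to 1.94, and its call was lost with levels under the filter raised to it (1.70, adjusted p 0.0529).

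**Figure D1:**
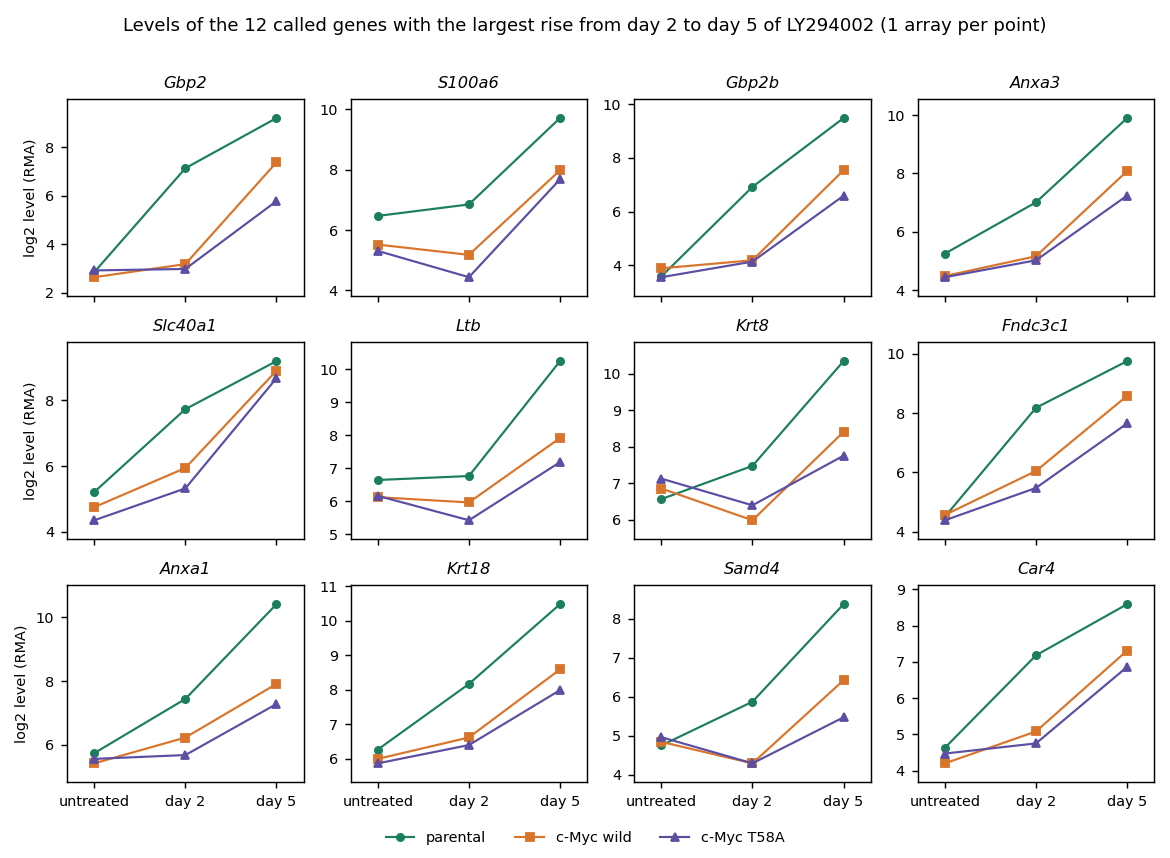
Log2 level (vertical axis, RMA) of the 12 called genes with the largest rise, in untreated cells and at day 2 and day 5 of LY294002 (horizontal axis, not to scale in time). Each point is 1 array and each line joins 1 cell line. The parental line (circles) is the highest of the 3 at day 2 and at day 5 in all 12 genes. The 2 days do not overlap in 5 of the 12 genes, against 256 of the 363 called genes and 2931 of the 13248 tested.

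Further members of these families and of cell junctions were looked up after the first values were seen, so their counts describe and do not test. Of 8 annexins 3 rose (all genes: 1.68%), the third being Anxa2, which read 7.17, 6.64 and 6.00 at day 2 and 9.34, 8.08 and 7.80 at day 5. Of 19 keratins Krt8 and Krt18 alone rose (all genes: 1.68%), and the median of the 19 was 0.05. Of 8 S100 genes 2 rose (all genes: 1.68%), with a median of 0.02 and 4 of the 8 above 0. These 2 were S100a6 and S100a10, the latter with a rise of 0.71 (SE 0.08, adjusted p 0.0227). The protein of S100a10 forms a complex with that of Anxa2. Of 24 tight junction genes 7 rose and 1 fell, against 1.68% and 1.06% of all genes. Cldn6 and Cldn7, claudins that seal epithelia, rose by 1.41 (SE 0.19, adjusted p 0.0326) and 1.28 (SE 0.17, adjusted p 0.0312). They were the only 2 of 11 claudins that rose (all genes: 1.68%), and the median of the 11 was 0.11, with 6 above 0. Cgn (cingulin), Marveld2 (tricellulin) and Tjp3 (ZO-3), which lie at the same junctions, rose by 0.84, 0.98 and 0.63. Ildr1, a receptor at junctions where 3 cells meet, fell by 0.80 (SE 0.08, adjusted p 0.0178). Zeb1, a repressor of epithelial genes, read 7.69, 8.18 and 8.59 at day 2 and 6.98, 7.46 and 7.95 at day 5. It fell by 0.69 (SE 0.07, adjusted p 0.0214), by nearly the same amount in each line. The actin-binding genes Tagln and Cald1, markers of contractile cells, rose by 1.64 (SE 0.13, adjusted p 0.0135) and 1.29 (SE 0.16, adjusted p 0.0305). The actin genes Acta2, Acta1 and Actc1 did not pass, at 0.37, 0.54 and 0.17 (adjusted p 0.356, 0.1859 and 0.2895). Acta2 changed by -0.13 in the T58A line.

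Of 11 genes tested of the interferon response list 3 rose (Gbp2, Psmb8 and Tap1; 1.68% of all genes rose), none fell, and 10 of the 11 fitted changes were above 0 with a median of 0.606. Gbp2, an interferon-inducible GTPase, read 7.14, 3.18 and 2.98 at day 2 and 9.21, 7.38 and 5.78 at day 5. It rose (adjusted p 0.0305), but its day 2 levels in both c-Myc lines lay under the level filter of 4.64. The fitted change of 3.03 (SE 0.38) was therefore 1.98 (SE 0.29, 3.96-fold, adjusted p 0.0392) with those levels raised to the filter. Gbp2b, its neighbour in sequence and on chromosome 3, read 6.92, 4.19 and 4.14 and then 9.48, 7.54 and 6.59. Its rise of 2.79 (SE 0.18, adjusted p 0.0114) was 2.47 (SE 0.18, 5.54-fold) with the 2 day 2 levels under the filter raised to it. The places of both genes among the largest rises are thus uncertain. Near-identical copies of this family can share probes, so the 2 genes are not independent readings. Psmb8, a catalytic subunit of the immunoproteasome, read 6.03, 4.75 and 4.76 at day 2 and 7.66, 6.08 and 5.67 at day 5, a rise of 1.28 (SE 0.14, adjusted p 0.0241). Tap1, a subunit of the peptide transporter into the endoplasmic reticulum, rose by 0.61 (SE 0.09, adjusted p 0.0416). Of 9 genes of peptide processing and loading, a group set up after values were seen, 5 rose (all genes: 1.68%). The other 3 were Psmb10, Tapbp and Erap1, with changes of 0.56, 0.80 and 1.07. The interferon-stimulated genes Ifit1, Ifit3, Irf7 and Oasl2 lay under the level filter on all 6 arrays and were not tested.

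The promoters of the 2 GTPase genes are shown because both genes rose and lie near each other. Sequences here are from RefSeq on GRCm38.p6, on the gene's strand, and end at the base before the annotated start. Capitals mark 2 copies of GAAA with any 2 bases between them, a repeat bound by interferon regulatory factors, searched on both strands in the 250 bases before the start and held by 2.98% of 32851 promoters. It was found for 1 of the 3 list genes that rose and for 5 of the 11 tested. Gbp2 lies at chr3:142620543-142620662 and Gbp2b at chr3:142594697-142594846, both on the plus strand.
Gbp2: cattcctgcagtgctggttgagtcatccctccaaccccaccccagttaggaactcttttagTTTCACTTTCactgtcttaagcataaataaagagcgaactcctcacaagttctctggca
Gbp2b: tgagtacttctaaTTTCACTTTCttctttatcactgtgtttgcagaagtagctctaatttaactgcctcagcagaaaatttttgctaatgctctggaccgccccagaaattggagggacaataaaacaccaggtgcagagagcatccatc

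The hypoxia response list had the most calls of the lists. Of 19 genes tested 8 rose and none fell, against 1.68% of all genes, with a median change of 0.549 against 0.009. No oxygen level was varied per the labels. The list holds targets of HIF-1, the factor that oxygen-dependent prolyl hydroxylation keeps unstable. P4ha2, a collagen prolyl hydroxylase subunit, read 6.08, 5.61 and 5.56 at day 2 and 7.11, 6.68 and 6.57 at day 5, a rise of 1.04 (SE 0.07, 2.05-fold, adjusted p 0.0114). P4ha1, its sister subunit, read 8.07, 7.45 and 7.12 and then 8.76, 8.28 and 8.29, a rise of 0.90 (SE 0.11, adjusted p 0.0302). P4ha2 did not overlap between the days and was lower at day 2 than untreated in each line. Egln1 and Egln3 encode 2 of the hydroxylases that act on HIF itself. Egln1 read 7.86, 7.44 and 7.55 at day 2 and 8.54, 8.32 and 8.47 at day 5, a rise of 0.83 (SE 0.08, adjusted p 0.0196). Egln3 read 6.93, 6.80 and 6.35 and then 8.21, 7.37 and 7.86, a rise of 1.12 (SE 0.18, adjusted p 0.0471). Neither gene overlapped between the days, where 256 of the 363 called genes and 2931 of the 13248 tested did not overlap.

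The other 4 that rose were Ak4, a mitochondrial adenylate kinase (0.91, SE 0.09), Higd1a, a mitochondrial membrane protein (0.76, SE 0.10), Ankrd37 (0.82, SE 0.13) and Ero1a, an oxidase of the endoplasmic reticulum (0.55, SE 0.07). Bnip3, a mitophagy receptor, read 11.10, 11.31 and 9.92 at day 2 and 12.11, 11.97 and 12.00 at day 5. Its change of 1.25 (SE 0.26) did not pass (adjusted p 0.0709), and the T58A line had by far the lowest day 2 level and the largest change. Vegfa, the angiogenic ligand and a classical target, did not pass at -0.38 (SE 0.21, adjusted p 0.328), with 0.21 in the parental line and -0.44 and -0.91 in the c-Myc lines. Car9, a carbonic anhydrase widely used as a hypoxia marker, lay under the level filter on all 6 arrays. Of 18 glycolysis genes 17 had a fitted change above 0, with a median of 0.309, but 1 passed, against 2.74% of all genes. This was Slc16a3, the lactate exporter MCT4, which read 5.81, 5.03 and 4.64 at day 2 and 6.34, 6.27 and 6.06 at day 5 (1.06, SE 0.18, adjusted p 0.0488, and 0.0501 with levels under the filter raised to it). The mean level of the glycolysis list was 9.21, 9.33 and 9.46 untreated, 10.08, 10.06 and 9.73 at day 2 and 10.40, 10.32 and 10.32 at day 5.

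The promoters of 4 of these genes are shown because the list had the most calls. Capitals mark the core of the hypoxia response element, ACGTG or GCGTG, on either strand. This short core occurred in the 250 bases before the start of 38.6% of the 32851 promoters. It occurred in 8 of the 8 list genes that rose and in 14 of the 18 genes tested that the promoter table holds. Positions are chr11:54100804-54100923 (plus strand) for P4ha2, chr10:59323096-59323295 (plus) for P4ha1, chr8:124949255-124949404 (minus) for Egln1 and chr8:45999851-46000050 (minus) for Ankrd37.
P4ha2: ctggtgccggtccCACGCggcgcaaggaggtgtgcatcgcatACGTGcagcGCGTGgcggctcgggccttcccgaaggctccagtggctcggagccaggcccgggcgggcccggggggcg
P4ha1: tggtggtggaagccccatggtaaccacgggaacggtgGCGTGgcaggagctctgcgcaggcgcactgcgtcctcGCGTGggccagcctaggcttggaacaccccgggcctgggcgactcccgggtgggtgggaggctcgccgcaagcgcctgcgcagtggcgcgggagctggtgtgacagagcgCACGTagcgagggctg
Egln1: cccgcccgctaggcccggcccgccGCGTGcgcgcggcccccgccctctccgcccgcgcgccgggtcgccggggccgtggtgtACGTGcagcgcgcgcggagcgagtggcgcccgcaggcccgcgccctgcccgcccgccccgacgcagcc
Ankrd37: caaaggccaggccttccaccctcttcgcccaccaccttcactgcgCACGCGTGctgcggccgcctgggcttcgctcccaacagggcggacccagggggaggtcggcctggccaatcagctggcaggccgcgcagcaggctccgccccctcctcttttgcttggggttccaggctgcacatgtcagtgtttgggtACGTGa

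Of 24 genes tested of the ATF4 and amino acid response list 3 fell (Chac1, Trib3 and Atf4) and none rose. Over all genes 1.06% fell and 1.68% rose. In the list 23 of the 24 fitted changes were below 0 with a median of -0.810. Atf4, the factor itself, read 11.94, 11.78 and 12.08 at day 2 and 11.39, 10.88 and 10.83 at day 5, a change of -0.90 (SE 0.14, adjusted p 0.0432). Chac1, which degrades glutathione, read 9.73, 9.47 and 10.49 and then 8.16, 7.37 and 7.13, a change of -2.34 (SE 0.33, 5.08-fold lower, adjusted p 0.0338). Trib3, a pseudokinase that binds Akt, read 9.59, 9.52 and 10.50 and then 8.50, 7.66 and 7.68, a change of -1.93 (SE 0.31, adjusted p 0.0455). None of the 3 overlapped between the days, where 256 of the 363 called genes and 2931 of the 13248 tested did not overlap. In each of the 3 the T58A line had the highest day 2 level. Nupr1, a stress-induced chromatin protein, had the largest change of the list at -2.75 (SE 0.60) and did not pass (adjusted p 0.0752), with -0.97, -2.87 and -4.40 in the 3 lines. Ddit3, which encodes the stress factor CHOP, stood at -1.93 (SE 0.38, adjusted p 0.0626). The amino acid enzymes Psat1, Phgdh and Shmt2 lay between -0.41 and -0.18, above the list median of -0.810, and did not pass either. The enzyme genes Aldh18a1 and Aldh1l2 stood lower, at -0.78 and -1.58, and did not pass (adjusted p 0.122 and 0.114). Asns stood at -0.28 (adjusted p 0.292).

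These fitted changes came with different sizes in the 3 lines. The median change of the list was -0.318 in the parental line, -0.479 in the c-Myc wild line and -1.282 in the T58A line. Its mean level was 10.55, 10.18 and 10.16 untreated, 9.47, 9.39 and 10.14 at day 2 and 9.02, 8.65 and 8.61 at day 5. The T58A array at day 2 thus stood near its untreated level while the other 2 lines were already lower, and the same array had the lowest glycolysis mean at day 2. The part of this array in the result was not tested beyond leaving the line out, where none of the list's genes was called.

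**Figure D2:**
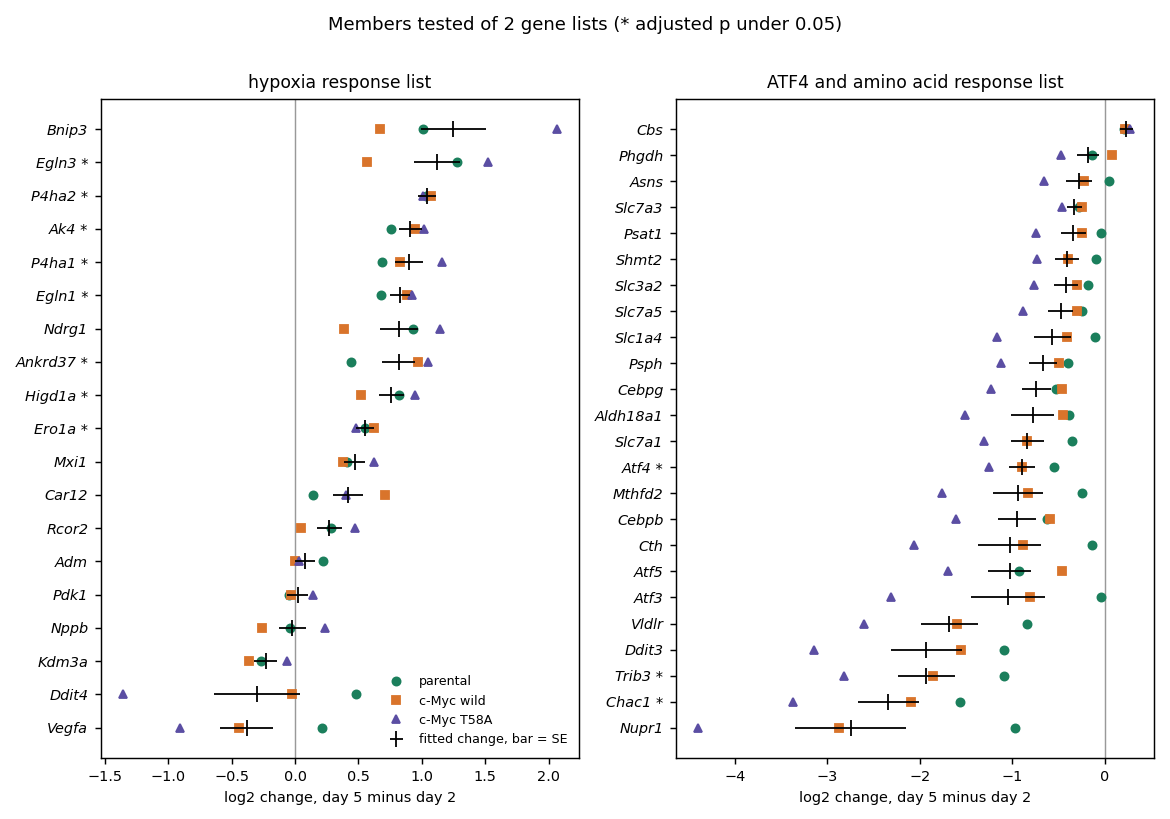
Log2 change from day 2 to day 5 (horizontal axis) of each gene tested of the hypoxia response list (left, 19 genes) and of the ATF4 and amino acid response list (right, 24 genes). Coloured symbols are the 3 lines, the black mark is the fitted change with its SE, and a star marks an adjusted p under 0.05. The T58A line (triangles) lies lowest for 23 of the 24 genes on the right.

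Chac1 and Herpud1, 2 of the 4 largest falls among called genes, are shown, and both windows hold the element marked below. Herpud1, which serves degradation of proteins from the endoplasmic reticulum, read 8.78, 8.61 and 9.33 at day 2 and 7.59, 7.02 and 6.88 at day 5, a change of -1.75 (SE 0.23, adjusted p 0.0325). Of 16 genes tested on the list of endoplasmic reticulum chaperones it was the only one called, against 2.74% of all genes. The median of that list was 0.026. Capitals mark the C/EBP-ATF composite element TGATGNAA on either strand, held by 3.45% of the 32851 promoters. It was found in 1 of the 3 genes of the ATF4 list that fell (Chac1, and not Trib3 or Atf4). Of the 21 tested that the table holds, 4 had it. Herpud1 is not on that list, so the 2 windows do not stand for the list. The windows are chr2:119351022-119351241 for Chac1 and chr8:94386279-94386428 for Herpud1, both on the plus strand.
Chac1: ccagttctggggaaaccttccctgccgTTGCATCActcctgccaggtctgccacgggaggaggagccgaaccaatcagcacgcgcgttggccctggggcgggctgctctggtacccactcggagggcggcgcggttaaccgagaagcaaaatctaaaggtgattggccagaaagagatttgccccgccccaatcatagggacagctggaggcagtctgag
Herpud1: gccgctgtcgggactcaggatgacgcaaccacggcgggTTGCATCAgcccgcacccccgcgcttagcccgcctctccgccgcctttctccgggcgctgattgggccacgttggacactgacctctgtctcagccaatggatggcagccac

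By fitted change the 12 largest falls among called genes were Chac1, Ttn, Trib3, Herpud1, G0s2, Pdgfc, Laptm5, Gadd45g, Capn3, Cass4, Aqp3 and Dnah8. Uncalled genes such as Nupr1 and Ddit3 had changes as large. The 2 days did not overlap in any of the 12, where 256 of the 363 called genes and 2931 of the 13248 tested did not overlap. Aqp3, a channel for water and glycerol, read 8.18, 8.13 and 8.48 at day 2 and 6.95, 6.71 and 7.05 at day 5, a change of -1.36 (SE 0.08, 2.57-fold lower, adjusted p 0.00871). It had read 10.85, 10.75 and 10.73 untreated, so it went on in the direction of day 2 in every line. G0s2, an inhibitor of the triglyceride lipase ATGL, followed the same course from 8.67, 7.94 and 7.90 untreated to 5.72, 5.52 and 6.85 at day 2 and 4.36, 4.15 and 4.73 at day 5. Its call was lost with levels under the filter raised to it (-1.36, adjusted p 0.0544). Pdgfc, a growth factor ligand, fell by 1.38 (SE 0.16, adjusted p 0.0277) and Laptm5, a lysosomal membrane protein, fell by 1.37 (SE 0.21, adjusted p 0.0432). Gadd45g, a growth arrest and stress gene, took another course. It read 4.55, 4.61 and 5.04 untreated, 7.05, 7.15 and 7.04 at day 2 and 5.89, 5.68 and 5.58 at day 5, so it lay highest at day 2 in every line. Its change from day 2 to day 5 was -1.37 (SE 0.09, adjusted p 0.0114). Ttn, the giant muscle protein, read 6.24, 5.85 and 6.11 and then 4.55, 3.67 and 3.89. All its day 5 levels lay under the filter, and the fitted change of -2.03 was -1.42 with them raised to it. A second probe set of the gene changed by 0.02, so the fall holds for 1 probe set. For Laptm5 the probe sets ranged from -1.37 to -0.01 and for Capn3 from -1.36 to -0.38.

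**Figure D3:**
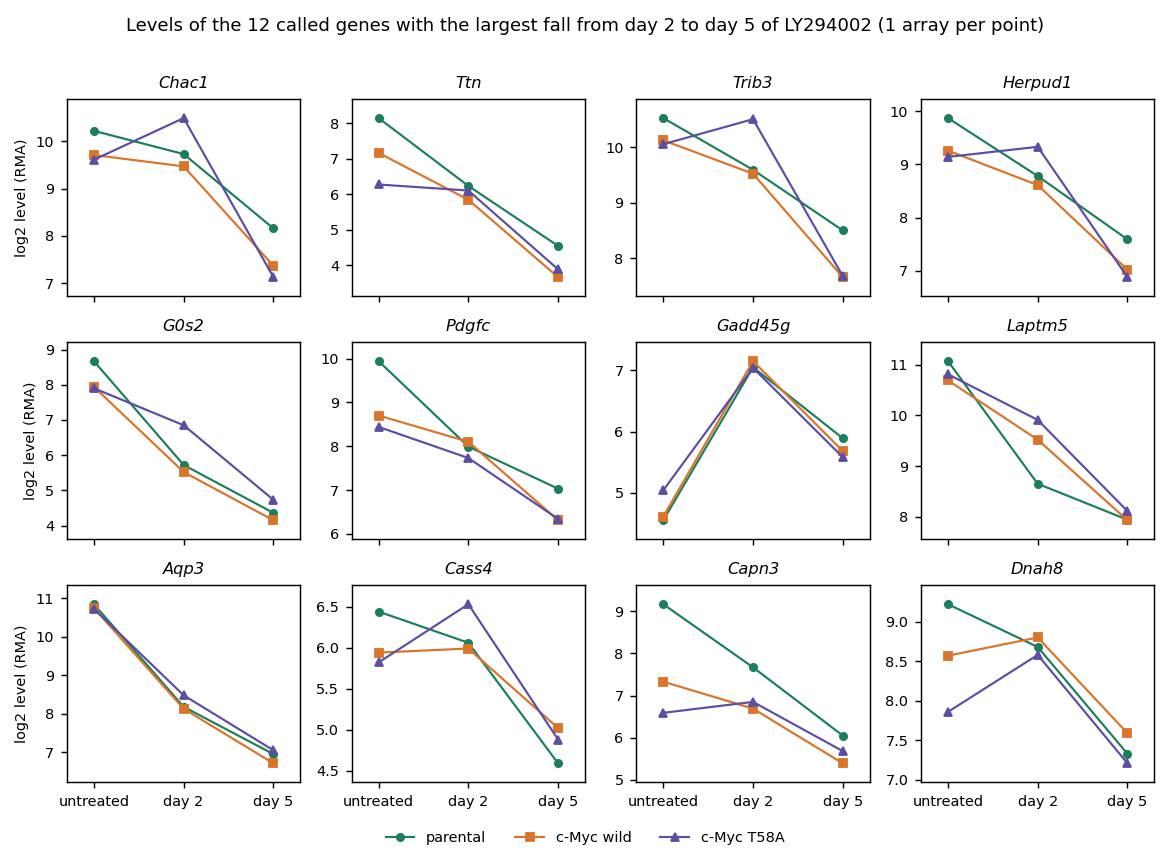
Log2 level (vertical axis, RMA) of the 12 called genes with the largest fall, in untreated cells and at day 2 and day 5 of LY294002 (horizontal axis, not to scale in time). Each point is 1 array and each line joins 1 cell line. The days do not overlap in any of the 12, where 256 of the 363 called genes and 2931 of the 13248 tested do not overlap. Gadd45g is the gene that peaks at day 2 in all 3 lines.

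Some genes of naive pluripotency fell while the core factors did not pass. Of 20 naive genes tested 4 fell, against 1.06% of all genes, and none rose, with a median of -0.230. Fbxo15, an Oct4 target and a reporter of the ESC state, read 10.59, 10.76 and 10.88 at day 2 and 9.62, 9.91 and 10.03 at day 5, a change of -0.89 (SE 0.07, adjusted p 0.0145). Tcl1, an Akt coactivator that also stands on the list of PI3K components, fell by 0.80 (SE 0.09, adjusted p 0.0277), Nr0b1 (Dax1) fell by 0.49 (SE 0.08, adjusted p 0.0438) and Klf2 fell by 0.47 (SE 0.07, adjusted p 0.0433). All 4 had already been lower at day 2 than untreated in every line. Klf2 still read 11.61, 11.70 and 11.77 at day 5. None of 9 core pluripotency genes was called (median -0.072), against 2.74% of all genes. Of the other direction, Dppa3, a gene of naive ESCs and the germ line, read 8.14, 7.69 and 7.78 and then 8.65, 9.05 and 8.74, which did not pass (adjusted p 0.0517). Lifr, the LIF receptor, read 10.59, 10.57 and 10.63 at day 2 and 9.83, 10.00 and 10.09 at day 5, a change of -0.63 (SE 0.08, adjusted p 0.0312). Lifr was chosen after its values were seen.

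Of 19 germ cell and meiosis genes 4 fell, against 1.06% of all genes, and none rose, with a median of -0.338. Hormad1, a protein of the meiotic chromosome axis, read 5.76, 5.74 and 5.96 at day 2 and 4.73, 4.42 and 4.42 at day 5, a change of -1.30 (SE 0.11, adjusted p 0.0163). With the 2 Hormad1 levels under the filter of 4.64 raised to it, the change was -1.15 (adjusted p 0.0138). Dmrt1, a testis and germ line factor, fell by 0.82 (SE 0.08, adjusted p 0.0182). Sycp1, of the synaptonemal complex, fell by 0.58 (SE 0.07, adjusted p 0.0305) to levels under the filter of 4.64, and its call was lost with those raised to it (-0.41, adjusted p 0.0778). Mael, of the piRNA pathway, read 5.00, 5.54 and 5.53 untreated, 7.20, 7.00 and 7.01 at day 2 and 6.70, 6.52 and 6.34 at day 5. It was thus nearer to untreated at day 5 than at day 2 and still above it.

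In the Hedgehog pathway 2 of 10 genes tested fell and none rose (median -0.278), against 1.06% of all genes lower. Gli1, a transcription factor and direct target of the pathway, read 8.98, 8.24 and 7.89 untreated, 7.08, 6.84 and 6.74 at day 2 and 6.20, 5.97 and 5.76 at day 5. Its change between the days was -0.91 (SE 0.07, adjusted p 0.0135), and the 3 days did not overlap. Gli2, the activator above it, fell by 1.02 (SE 0.14, adjusted p 0.0327). Ptch1, the receptor and a further target, did not pass at -0.56 (SE 0.17, adjusted p 0.131), with -1.07 in the parental line and -0.35 and -0.26 in the others. Hhip, a decoy receptor and target, had read 9.22, 7.67 and 7.29 untreated and stood at 4.81, 4.45 and 5.33 at day 2 and at 4.21, 3.91 and 3.90 at day 5. That late step did not pass (adjusted p 0.0749), and all the day 5 levels of Hhip lay under the level filter of 4.64.

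Genes that act on or below PI3K were followed by the lists of FOXO targets, ERK response, Nodal and BMP signalling and PI3K components. Of 18 FOXO and PI3K feedback targets 3 rose and none fell, against 1.68% and 1.06% of all genes. Erbb3, a receptor that recruits PI3K, read 8.58, 7.46 and 6.81 at day 2 and 9.46, 8.46 and 8.24 at day 5, a rise of 1.11 (SE 0.12, adjusted p 0.0231). Irs2, the insulin receptor substrate, rose by 0.50 (SE 0.07, adjusted p 0.0371) and Trib1, a pseudokinase, by 0.69 (SE 0.11, adjusted p 0.0432). Bcl2l11, which encodes the death-promoting protein Bim and is a FOXO target, read 9.60, 8.94 and 8.74 and then 10.55, 9.93 and 9.85. It had stood near its untreated level at day 2 and rose by 1.02 (SE 0.08, 2.02-fold, adjusted p 0.0135). Bcl2l11 was the only one called of 14 Bcl2 family genes, against 2.74% of all genes. Akt1 read 6.95, 6.84 and 6.70 and then 7.52, 7.40 and 7.43, a rise of 0.62 (SE 0.08, adjusted p 0.0306). It was the only PI3K component of 21 that rose, and Tcl1 the only one that fell, against 1.68% and 1.06% of all genes. Pik3ca, the catalytic subunit p110 alpha, read 8.34, 8.29 and 8.33 and then 8.52, 8.34 and 8.15, which did not pass.

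Of 15 ERK response and immediate-early genes 3 rose, against 1.68% of all genes, and none fell. Ier3, an early response gene, read 7.51, 6.46 and 6.19 and then 8.85, 7.89 and 7.69, a rise of 1.43 (SE 0.08, 2.69-fold, adjusted p 0.00871). Jun read 6.82, 4.20 and 4.81 and then 8.18, 6.58 and 5.88, with a rise of 1.60 (SE 0.25, adjusted p 0.0432) and day 2 levels that overlapped those of day 5. With the 1 day 2 level under the filter of 4.64 raised to it, the rise of Jun was 1.45 (adjusted p 0.0287). Junb, its relative in the AP-1 complex, rose by 0.50 (SE 0.08, adjusted p 0.0480). Lefty1 and Lefty2, secreted inhibitors and targets of Nodal, were the 2 called of 15 Nodal and BMP genes, against 1.68% of all genes higher. Lefty2 read 6.99, 7.87 and 8.62 untreated, 6.22, 5.79 and 6.17 at day 2 and 7.61, 7.47 and 7.13 at day 5. It rose by 1.34 (SE 0.14, adjusted p 0.0223) and was closer to untreated at day 5 on average, although the parental line had passed its untreated level. Lefty1 rose by 1.08 (SE 0.17, adjusted p 0.0432).

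Myc and its partners were not called. Myc read 7.43, 7.51 and 6.99 untreated, 9.19, 9.50 and 8.37 at day 2 and 9.60, 9.60 and 9.55 at day 5. Between the days the change was 0.56 (SE 0.20, adjusted p 0.179), with 1.17 in the T58A line. The lines labelled as overexpressing c-Myc thus read close to or below the parental line. Whether the probe set lies in the part of Myc that the transgenes carry is not known, so it does not check the labels. Mycn read 12.38, 11.83 and 11.60 at day 2 and 11.95, 12.30 and 11.96 at day 5, and Max read 8.65, 8.68 and 8.40 and then 8.40, 8.66 and 8.71. Neither moved the same way in all 3 lines. None of the 14 genes of the Myc-Max network and none of 29 genes of ribosome biogenesis and Myc targets was called. Over all genes 2.74% were called, so lists of these sizes would often hold no call.

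Of 12 primitive endoderm genes tested 3 rose, against 1.68% of all genes. These were Col4a1 (1.28, SE 0.19), a basement membrane collagen, Sparc (0.89, SE 0.14), a matrix protein, and Amn (0.52, SE 0.08), an endocytic receptor subunit, while Sox7, Pdgfra and Cubn stayed low as given above. Eomes, a mesendoderm and trophoblast factor, read 6.16, 6.28 and 5.80 and then 7.00, 6.96 and 6.98, a rise of 0.90 (SE 0.11, adjusted p 0.0305). It was the only one called of 9 streak genes, against 2.74% of all genes. Of the neuroectoderm list Nes rose by 0.45 and Tubb3 fell by 0.63, against 1.68% and 1.06% of all genes, and the other 6 tested did not pass. Cdh2, the N-cadherin of the primed epiblast, rose by 0.44 (SE 0.07, adjusted p 0.0484). It was the only one called of 14 formative and primed epiblast genes tested, against 2.74% of all genes. Of 17 p53 targets and CDK inhibitors Perp (1.55, SE 0.12) and Cdkn2b (0.58, SE 0.10) rose and Sesn2 fell by 0.81 (SE 0.12), against 1.68% and 1.06% of all genes. Hspa1b, a heat shock protein, rose by 0.85 and Nqo1, an Nrf2 target, fell by 0.65. Phlda2 was the only one of 21 imprinted genes called, against 2.74% of all genes, and fell by 0.63 (SE 0.10, adjusted p 0.0432). No gene was called among those tested for cholesterol synthesis (23, median 0.193), DNA replication and mitosis (22), oxidative phosphorylation (21), lysosome and autophagy (16), Wnt targets (9), DNA methylation machinery (9) or fibroblasts (9). With 2.74% of all genes called, each of these lists is small enough that no call is little information.

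**Figure D4:**
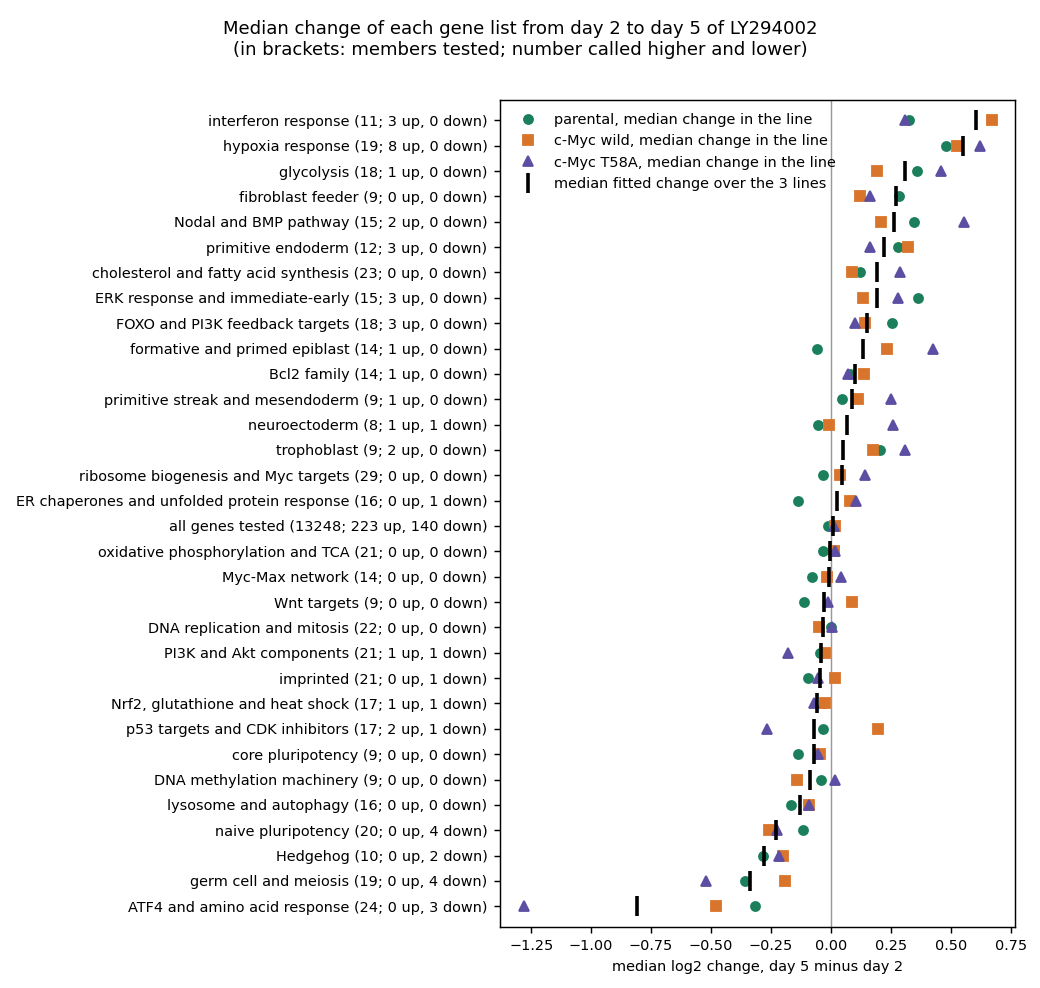
Median log2 change from day 2 to day 5 (horizontal axis) over the tested members of each of 31 gene lists and of all genes. Coloured symbols give the median in each line and the black mark that of the fitted change, with the members tested and called in brackets. The interferon and hypoxia response lists have the highest medians (0.606 and 0.549) and the ATF4 list the lowest (-0.810), with the widest spread between lines.

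Set against the untreated arrays, most called genes went on in the direction they had taken by day 2. The day 2 arrays stand in both differences, so these counts describe courses and test nothing. Of the 223 genes that rose, 161 went on, 9 returned towards untreated and 53 passed it to the other side. Of the 140 that fell the counts were 99, 9 and 32, and of all 13248 genes 7422, 3608 and 2218. For 111 of the genes that rose (49.8%) and 71 of those that fell (50.7%) the mean at day 2 was within 0.5 of untreated. Of all genes tested 84.7% were that near, so called genes were less often near untreated at day 2 than genes in general. Of the 16 genes farthest from untreated at day 2 (8 above and 8 below), 3 were called between the days, Aqp3, Gadd45g and Napsa. Hs6st2, a heparan sulfate sulfotransferase, was 3.28 above untreated at day 2 and 3.52 above at day 5. Lef1, a nuclear partner of beta-catenin, was 2.54 above and then 2.64 above, and Niban1 -2.66 and then -2.71. Pou3f1 (Oct6), a factor of the primed epiblast, was 2.32 above untreated at day 2 and 3.60 at day 5, with a late change of 1.28 that did not pass (SE 0.24, adjusted p 0.0560). Napsa, an aspartic protease, read 10.54, 9.93 and 9.43 untreated, 6.94, 6.81 and 6.90 at day 2 and 5.29, 5.73 and 5.82 at day 5, and its late change of -1.27 passed (SE 0.13, adjusted p 0.0214). Dll1, a Notch ligand, read 6.54, 6.35 and 6.15, then 7.82, 8.07 and 8.06 and then 7.14, 6.75 and 6.79, so it rose to day 2 and came back in part in every line. Its change between the days was -1.09 (SE 0.14, adjusted p 0.0312).

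The lines had similar numbers of strong rises and different numbers of strong falls. At least 2-fold rises numbered 120 (0.906%) in the parental line, 143 (1.08%) in the c-Myc wild line and 115 (0.868%) in the T58A line, each from 1 array per day and so without a test. At least 2-fold falls numbered 37 (0.279%), 57 (0.43%) and 126 (0.951%). The lines share no array, and across 13248 genes the changes of parental and c-Myc wild cells correlated at 0.562, of parental and T58A cells at 0.461 and of both c-Myc lines at 0.646. Genes are not independent replicates, so these r values are a description. The parental line was the highest of the 3 at day 2 for 200 of the 223 genes that rose (89.7%) and at day 5 for 184 (82.5%), against 34.8% and 34.4% of all genes. Over the 12 largest called rises the median level was 5.23, 4.80 and 4.72 untreated, 7.16, 5.56 and 5.17 at day 2 and 9.73, 7.95 and 7.26 at day 5. The c-Myc lines at day 5 thus stood near the parental line at day 2 in these genes, as in Krt18, where the T58A line read 7.99 at day 5 and the parental line 8.17 at day 2. With 1 parental array per day this offset in level was not tested.

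Whether the c-Myc lines changed differently from the parental line was tested on 9 arrays, and no gene was called (0%). Adjusted p-values began at 0.218. Without adjustment 1011 genes were under 0.05, 540 of them with the larger value in the c-Myc lines and 471 with the smaller. The limma fit has 2 residual degrees of freedom, all from the c-Myc lines, so it could miss differences. The genes with the smallest p are given as values. Tmem54, a membrane protein, changed by -0.18 in the parental line and by 1.63 and 2.00 in the c-Myc lines, from 6.09, 4.54 and 4.12 at day 2 to 5.92, 6.17 and 6.12 at day 5. The day 2 levels of Tmem54 in both c-Myc lines lay under the level filter of 4.64, so the size of those changes is uncertain. Vcan, the matrix proteoglycan versican, changed by -0.59, 0.78 and 0.93. Efna5, an ephrin ligand, went the other way with 1.76, 0.29 and 0.21, and Itga8, an integrin subunit, with 1.64, 0.54 and 0.27. In each of these 4 genes the c-Myc lines resembled each other more than either resembled the parental line, which is the pattern that a small p in this fit requires.

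**Figure D5:**
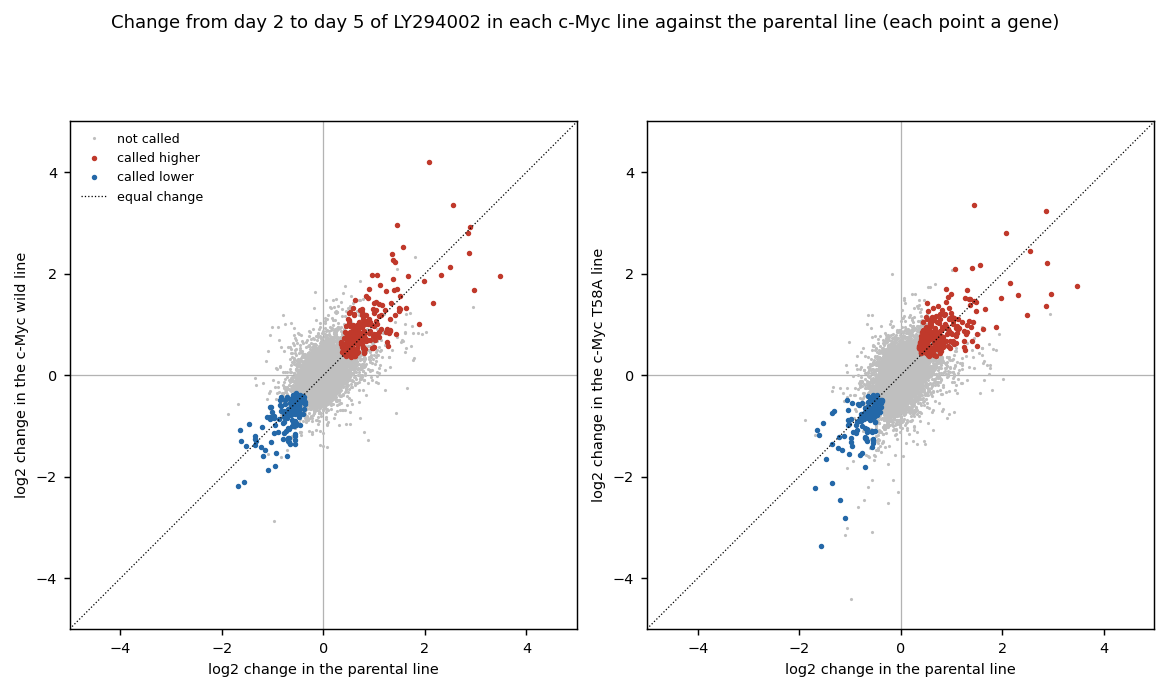
Log2 change from day 2 to day 5 of each of 13248 genes in the c-Myc wild line (left) and the c-Myc T58A line (right) against the parental line, with genes called higher in red and lower in blue. The dotted line marks equal change. The called genes lie in the same quadrant in all lines, and the falls past 1 on the log2 scale are more numerous in the T58A line (126) than in the parental line (37).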

How the data were processed

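RNA was measured on Affymetrix arrays, 1 per sample, from total RNA extracted with TRIzol and labelled with biotin per the labels. The deposited log2 values were made by the authors by RMA with the affy package, per the submitters' processing notes, with versions and settings not given in the sources used here. The 6 arrays compared have medians of 5.31 to 5.37. The parental replicate 1 and 2i arrays lie at 5.03 to 5.05, and no label states whether they were normalized separately. RMA values have no count behind them, so the number of arrays limits the precision, and RMA compresses changes of dim genes.

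Of 45101 probe sets 34945 named 1 gene in the platform annotation, 932 named several and 9160 none, and 34754 were matched to RefSeq by identifier. Each of 18193 genes took its probe set with the highest mean over 18 arrays. Genes above 4.64, the 40th percentile of the table, on at least 2 of the 6 arrays were tested (13248) with limma 3.58.1 in R 4.3.3 (lmFit, eBayes), with line as a block, 2 residual degrees of freedom and 2-sided Benjamini-Hochberg adjusted p-values. The difference between c-Myc and parental lines used 9 arrays. The scripts were tested on simulated data. The block is the cell line, and the deviations of its 2 arrays from the day means correlated over genes at 0.624, 0.202 and 0.372. In the parental and T58A lines the day 2 array correlated most with the day 5 array of its own line. The c-Myc wild day 2 array correlated more with the T58A day 5 array (0.534) than with its own. Whether arrays of a line came from separate cultures is not stated.

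The members, the 32 gene lists and the families were chosen with earlier results of these data known. Named genes are the 12 largest rises and falls called with 1 direction in all lines, up to 5 members per list with the smallest p, the 8 largest rises and falls at day 2, Myc, Mycn, Max, Pik3ca, Pou5f1, Sox2 and Nanog, and the 5 smallest p-values each way for the difference between lines. Genes outside this rule (among them Anxa2, S100a10, Car2, the junction genes, Zeb1, Tagln, Cald1, Erap1, Lifr and Dll1) were chosen after their values were seen. No gene of the 2-cell-like list was at a level to be tested. The alternatives changed the filter, scaling, probe set, prior, block, threshold and arrays, and raised levels under the filter to it.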

Additional observations from a re-analysis of the deposited data

Results flagged for a closer look

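Day 5 of LY294002 was also measured in a second parental serum pair (replicate 1) and in parental cells in 2i medium, where MEK and GSK3 are inhibited. These pairs have no day 2 array and so stand outside the comparison. They are given as values for the genes with the largest called changes. Those genes were chosen with the ver2 day 5 array, so values of the ver2 pair are not an independent measure. Over the 12 called genes with the largest rise the median of day 5 minus untreated was 0.53 in replicate 1 (from -1.70 to 4.31, with 11 of 12 above 0) and -0.74 in 2i (3 of 12 above 0), against 4.09 in the parental ver2 pair. Over the 12 called genes with the largest fall it was -0.58 in replicate 1 (1 of 12 above 0), -0.10 in 2i and -2.60 in the ver2 pair. Over all genes tested the median was 0.01 in replicate 1 and in 2i, with 6829 and 6924 of 13248 above 0. The medians of these arrays (5.03 to 5.05) lie apart from those of the 6 arrays (5.31 to 5.37). Each value is a difference within its own pair, and no value has a replicate.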

How the results depend on the processing

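The 363 calls (223 rises and 140 falls) ranged from 2 to 678 when 1 line was left out. Rises ranged from 2 to 402 and falls from 0 to 276. All 363 genes had moved the same way in all 3 lines, so none could turn direction in these fits. Without the block, which is the cell line that pairs the arrays, 25 genes were called (5 and 20). With a trended robust prior the calls were 1122 (625 and 497) and at a threshold of 0.1 they were 1233 (705 and 528). With parental replicate 1 in place of ver2 there were 0 calls, 0 rises and 0 falls by limma (1254 at an unadjusted p under 0.05). Falls numbered 225 with the filter at the 60th percentile and 247 with centred arrays. No filter, quantile normalization, other choices of probe set and the fit on 9 arrays gave between 311 and 448 calls, and the 9 arrays kept 207 of the 363. The block also decided the call of 19 of the 24 called genes with the largest changes. Raising levels under the filter to it, chosen after seeing the data, gave 353 calls (217 and 136), 341 of them among the 363. Of the 115 genes followed, 4 lost their call (Samd4, G0s2, Sycp1 and Slc16a3).

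The test between c-Myc and parental lines called 0 genes in every setting tried. Changes that did not pass turned sign with parental replicate 1 for Hs6st2 (-0.61), Lef1 (-0.16), Pik3ca (-0.39), Phgdh (0.01) and Zfp42 (0.01), and with centring for Max (-0.03) and Pik3ca (-0.04). Among called genes named here Cdh2 turned with replicate 1 (-0.27). Leaving out 1 line turned Hs6st2 (-0.08 to 0.50), Lef1 (-0.19 to 0.33), Niban1 (-0.22 to 0.26), Mycn (-0.04 to 0.41), Max (-0.13 to 0.15) and Pik3ca (-0.07 to 0.11). The cause was not tested. Centring moved the median of all genes from 0.009 to -0.046. With 2 residual degrees of freedom, a gene that did not pass is not shown to be unchanged.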
